A study of Mus musculus with 21 samples.

Results

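The semaphorin, plexin and neuropilin genes were followed across neutrophils (PMNs) and renal tubular epithelial cells (TECs) of mice. The members were all 20 semaphorin, 9 plexin and 2 neuropilin genes by symbol, 31 of 54123 annotated genes. Semaphorins are secreted or membrane-bound guidance proteins that were first known for steering axons and also act in immunity, blood vessels and epithelia. Plexins are their receptors, which signal to the cytoskeleton through small GTPases. Neuropilins are co-receptors that secreted class 3 semaphorins need to reach most plexins, and they also bind vascular endothelial growth factors. Sema5b, a membrane-bound semaphorin with thrombospondin repeats, is named in the title of the study, and Plxna1 is one of the plexins through which class 5 semaphorins act on growing neurites.

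All mice were wildtype males of the C57BL/6 strain aged 8 to 12 weeks. Remote ischemic preconditioning (RIPC) was 3 inflations of a hind-limb cuff for 5 minutes each, and control mice had a cuff at a pressure too low to stop the flow. Ischemia-reperfusion injury (IRI) was the clamping of both renal pedicles for 32 minutes, sham-operated mice were not clamped, and the cells were taken 24 hours later. RNA-Seq gave 21 libraries in 8 groups, which are PMNs or TECs after sham surgery or IRI, each with control or RIPC. The control groups of PMNs after sham surgery, PMNs after IRI and TECs after IRI had 2 libraries each, and the other 5 groups had 3. PMNs came from blood according to the labels, and the study's methods give the isolation of TECs as binding to beads against prominin-1.

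The libraries held 20881334 to 30507235 reads in PMNs and 21479605 to 51624602 reads in TECs. Library 2 of the TEC sham control group was the deepest and had the fewest genes with more than 3 reads, 12846, against 15212 to 23846 in the other libraries. The 10 neutrophil markers summed to 6042 to 32262 CPM (read counts put on one scale across libraries with TMM factors) in PMNs and to 1.62 to 89.3 CPM in TECs. PMN libraries also held other cells' markers. Their 8 macrophage markers summed to 2929 to 9345 CPM after sham surgery and to 602 to 1637 CPM after IRI, and 7 proximal tubule markers to 152 to 2034 CPM. The 6 distal tubule and collecting duct markers summed to 45.3 to 5195 CPM, highest in library 2 of PMN sham control. The 4 podocyte markers reached 1346 CPM and the 7 endothelium markers 333 CPM, both in library 3 of PMN sham RIPC. In TECs these 3 lists reached 1179, 950 and 167 CPM. In TECs the 7 proximal tubule markers summed to 3592 to 8697 CPM after sham surgery and to 615 to 4385 CPM after IRI. For IRI in TECs 3 of the 7 were called lower, beside 1.15% of all genes tested. The part of these cells in the results below was not tested, and in bulk libraries fewer cells of a type and less RNA per cell cannot be told apart.

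A member was called detected in a library with more than 3 reads and expressed in a cell type with at least 1 CPM in 0.5 or more of its libraries. By this rule PMNs expressed 18 of the 31 genes, made up of 11 semaphorins, 5 plexins and 2 neuropilins. TECs expressed 19, made up of 13 semaphorins, 4 plexins and 2 neuropilins. Both cell types expressed 14 of them: Sema3a, Sema3c, Sema3g, Sema4a, Sema4b, Sema4d, Sema5a, Sema6a, Sema6d, Plxna2, Plxnb1, Plxnb2, Nrp1 and Nrp2. Sema3d, Sema6b, Plxna4 and Plxnc1 met the rule in PMNs and not in TECs. Sema3b, Sema3e, Sema4g, Sema5b and Plxna1 met it in TECs and not in PMNs. The remaining 8, Sema3f, Sema4c, Sema4f, Sema6c, Sema7a, Plxna3, Plxnb3 and Plxnd1, met it in neither. Sema5b and Plxna1 reached 1 CPM in 6 and 7 of the 11 TEC libraries, and neither met the rule in TECs at 2 CPM or at 1 TPM. With 1 TPM in place of 1 CPM, 8 genes met it in PMNs and 8 in TECs. With protein-coding transcripts alone, chosen after seeing the data, Sema3a, Sema4g, Sema5b and Plxna2 did not meet it in TECs. In PMNs, Sema3a, Sema3c, Sema3d, Sema5a and Plxna2 did not meet it. The median of Sema5b in TECs was then 0.115 CPM and that of Plxna1 was 1.59 CPM. Being on one side of this rule is no test of a difference.

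**Figure D1:**
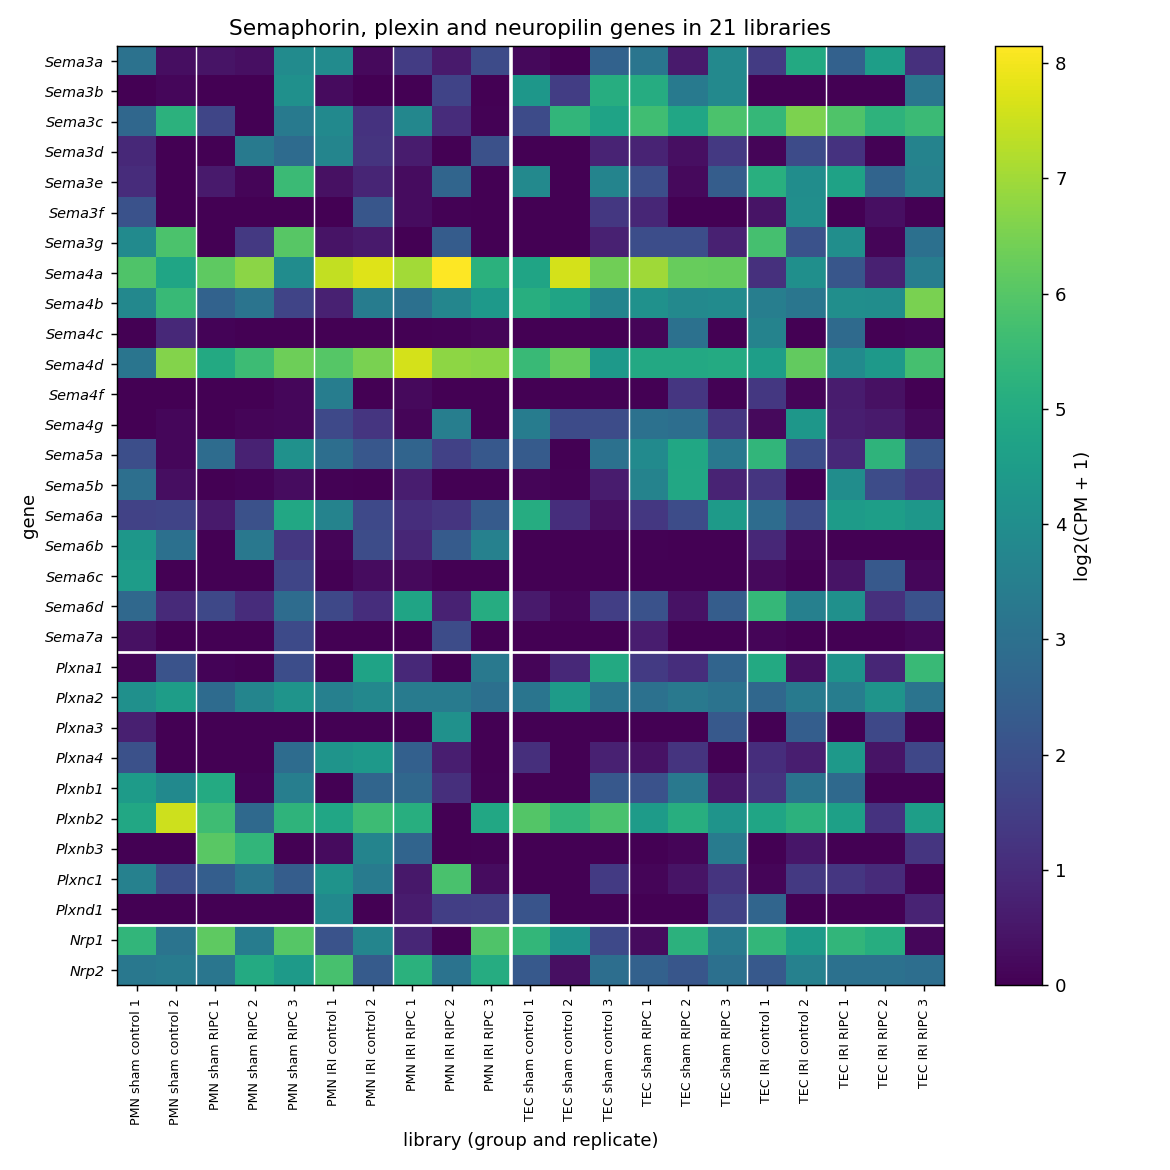
Level of each of the 31 genes (rows, semaphorins, plexins and neuropilins divided by white lines) in each of the 21 libraries (columns, by group and replicate), as log2 of CPM plus 1. Sema4a, Sema4d and Plxnb2 are bright in most libraries, Sema4a is dim in the 5 TEC libraries after IRI, and most other genes are bright in some libraries of a group and dark in others.

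The plot of all genes by library shows how much the libraries of one group differed. A PMN library had 16 to 25 of the 31 genes detected, with a median of 21.5, and a TEC library 13 to 25, with a median of 23. Only 7 genes were detected in all 21 libraries. Across libraries of a cell type the standard deviation of an expressed member was typically larger than its mean, with a median ratio of 1.18 in PMNs and 1.12 in TECs.

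On the TPM scale, in which reads are divided by transcript length so that genes can be compared, the same few genes led in both cell types. In PMNs the highest mean levels were 27.5 TPM ± 12.7 (SD, n = 10) for Sema4d, 24.1 ± 18.2 for Sema4a and 18.0 ± 23.5 for Plxnb2. They were followed by Nrp1 at 3.81 TPM ± 4.00 and Sema3c at 3.04 TPM ± 3.17. In TECs the order was Sema4a at 15.7 TPM ± 18.4 (SD, n = 11), Plxnb2 at 10.8 ± 6.34, Sema4d at 10.7 ± 2.78, Sema3c at 5.91 ± 3.32 and Sema4b at 3.79 ± 3.02. Neighbours in these orders differed by less than the larger of their standard deviations, except Sema4d and Sema3c in TECs. By group the leading gene was Plxnb2 in PMNs after sham surgery and control, Sema4d in PMNs with RIPC after sham surgery and after IRI, and Sema4a in PMNs after IRI and control. Sema4a also led in both TEC groups after sham surgery. After IRI the leading gene of TECs in the control group was Plxnb2, with 12.7 TPM ± 11.7 (SD, n = 2) beside 10.2 ± 4.38 for Sema4d. In the RIPC group it was Sema4d, with 12.2 TPM ± 3.60 (SD, n = 3). The order depended on the scale. By mean CPM, Sema3c led both TEC groups after IRI, with 67.4 CPM in control and 47.5 CPM in RIPC, and Sema4a led both PMN groups with RIPC. The lead of Plxnb2 in PMN sham control was a mean of 43.2 TPM ± 49.8 (SD, n = 2), with 698 reads in library 1 and 3850 in library 2. Library 2 also held 5195 CPM of distal tubule and collecting duct markers, whose part in this lead was not tested.

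Sema4a, a membrane semaphorin known for co-stimulating T cells, was the single member that edgeR's main test called for IRI in TECs. In TECs after sham surgery it had 26.4, 197 and 82.4 CPM in the control libraries and 126, 74.8 and 73.3 CPM in the RIPC libraries. After IRI it had 1.20 and 15.8 CPM in the control libraries and 3.58, 0.677 and 9.97 CPM in the RIPC libraries. The highest library after IRI lay below the lowest after sham surgery, so the groups did not overlap.

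The level of Sema4a in TECs was 96.7 CPM ± 58.6 (SD, n = 6) after sham surgery and 6.24 CPM ± 6.49 (SD, n = 5) after IRI. It fell by 3.98 on the log2 scale (SE 0.90, adjusted p = 0.0457), by edgeR's quasi-likelihood test with Benjamini-Hochberg adjustment over 25917 genes. Sema4a was the single member called in this comparison, of 27 tested, where 1.4% of all genes tested were called, 1.15% lower and 0.255% higher. Sema3b, Sema3g and Sema6d were called as well by DESeq2's Wald test, which called 4 members and 8.62% of all genes. Sema4a was also the single member whose groups did not overlap, against 4.6% of all genes. The call was not stable, since it was lost on leaving out library 2 (adjusted p = 0.160) or 3 (0.0914) of the sham control group, library 1 (0.108), 2 (0.101) or 3 (0.0827) of the sham RIPC group or library 1 of the IRI RIPC group (0.0672). Within control mice alone the difference was -3.65 (adjusted p = 0.489) and within RIPC mice alone -4.30 (adjusted p = 0.218), and scaling by the size factors of DESeq2 gave an adjusted p of 0.0510.

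In PMNs, Sema4a had 59.1 and 26.7 CPM after sham surgery and control and 69.0, 106 and 14.7 CPM after sham surgery and RIPC. After IRI the control libraries had 166 and 217 CPM and the RIPC libraries 128, 283 and 35.9 CPM. The mean was 55.0 CPM ± 36.1 (SD, n = 5) after sham surgery and 166 CPM ± 93.1 (SD, n = 5) after IRI, and the groups overlapped through library 3 of the IRI RIPC group. The log2 difference of 1.68 (SE 0.70) did not pass edgeR's test (adjusted p = 0.413). The test of whether the effect of IRI differed between TECs and PMNs gave -5.62 (SE 1.24) with an unadjusted edgeR p of 0.0002 and an adjusted p of 0.124.

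**Figure D2:**
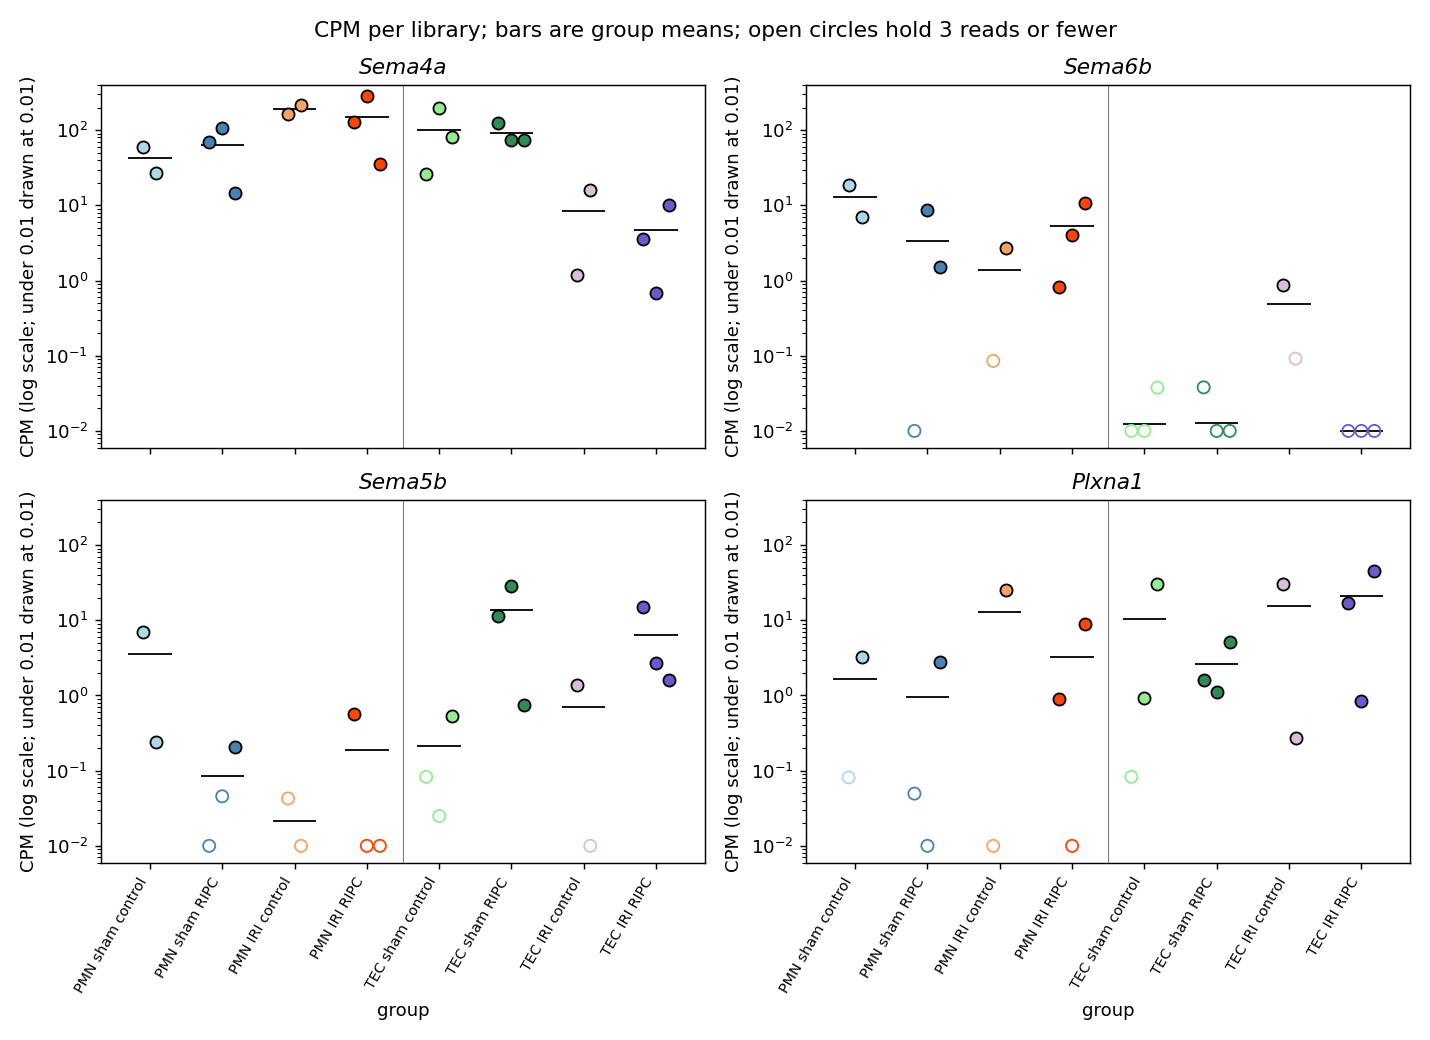
CPM per library on a log axis for Sema4a, Sema6b, Sema5b and Plxna1 in the 8 groups, with bars at the group means and open circles for libraries with 3 reads or fewer. The 5 TEC libraries after IRI lie at 0.677 to 15.8 CPM of Sema4a, below the 6 after sham surgery at 26.4 to 197 CPM, whereas Sema5b and Plxna1 spread over orders of magnitude within groups.

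The transcripts that Salmon assigned the reads of Sema4a to differed between the same groups. Sema4a lies at chr3:88435959-88461182 on the minus strand of GRCm38. Reads of protein-coding transcripts numbered 356, 7015 and 1465 of the 638, 7921 and 2192 reads in the TEC libraries after sham surgery and control. They numbered 1913 of 3319, 744 of 1974 and 1414 of 1657 in those after sham surgery and RIPC. After IRI they numbered 1 of 30 and 2 of 345 in the control libraries, and 0 of 93, 8 of 16 and 0 of 216 in the RIPC libraries. The reads left after IRI were thus nearly all assigned to transcripts not annotated as protein-coding. Such transcripts held most reads of many other genes too. In the TEC libraries after IRI, 17.9% to 23.7% of coding genes with more than 3 reads had fewer coding than other reads. Of the members with more than 3 reads, 24% to 50% did. The share of coding genes was 10.2% to 19.0% in TECs after sham surgery and 19.2% to 24.5% in PMNs. Splits as uneven as that of Sema4a were not counted apart.

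The transcript Sema4a-212, a retained-intron transcript of 5 exons and 2108 bases at chr3:88435962-88441139, held 2071 of the reads of Sema4a in TECs and 230 of those in PMNs. Most of the reads left in TECs after IRI were assigned to it. A longer retained-intron transcript, Sema4a-211, of 7 exons and 2357 bases at chr3:88435962-88450038, held more reads, 3113 in TECs, all in libraries after sham surgery, and 4238 in PMNs. Sema4a-212 starts inside an intron of the main coding transcript Sema4a-201 and runs on into the next exon. In coding transcripts alone the fall in TECs was -9.19 on the log2 scale (SE 1.45, adjusted p = 0.00730 by edgeR), an alternative chosen after the data had been seen, in which 2.33% of all genes were called. Salmon's division of reads between overlapping transcripts is an estimate. Of the PMN libraries, 9 of 10 had more than 3 coding reads of Sema4a, with 2315 and 4710 in the control and 2622, 5020 and 647 in the RIPC libraries after IRI.

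Sema5b also had reads on a retained-intron transcript. The gene lies at chr16:35541145-35664732 on the plus strand, and Sema5b-205, a retained-intron transcript of 2928 bases at chr16:35541145-35648140, ends before most coding exons. The boundary between a coding exon (capitals, 30 bases) and retained intron (lower case, 60 bases) in each of these transcripts is printed because it marks where these transcripts part from the coding ones, and the whole stretch occurs in 1 annotated transcript each. The stretches, from the Gencode M21 transcripts of GRCm38, lie at chr3:88440849-88440938 on the minus strand and chr16:35645416-35645505 on the plus strand.
Sema4a-212: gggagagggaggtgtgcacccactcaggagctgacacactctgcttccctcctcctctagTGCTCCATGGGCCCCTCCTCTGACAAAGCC
Sema5b-205: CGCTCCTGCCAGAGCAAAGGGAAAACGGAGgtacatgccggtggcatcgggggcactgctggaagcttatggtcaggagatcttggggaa

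**Figure D3:**
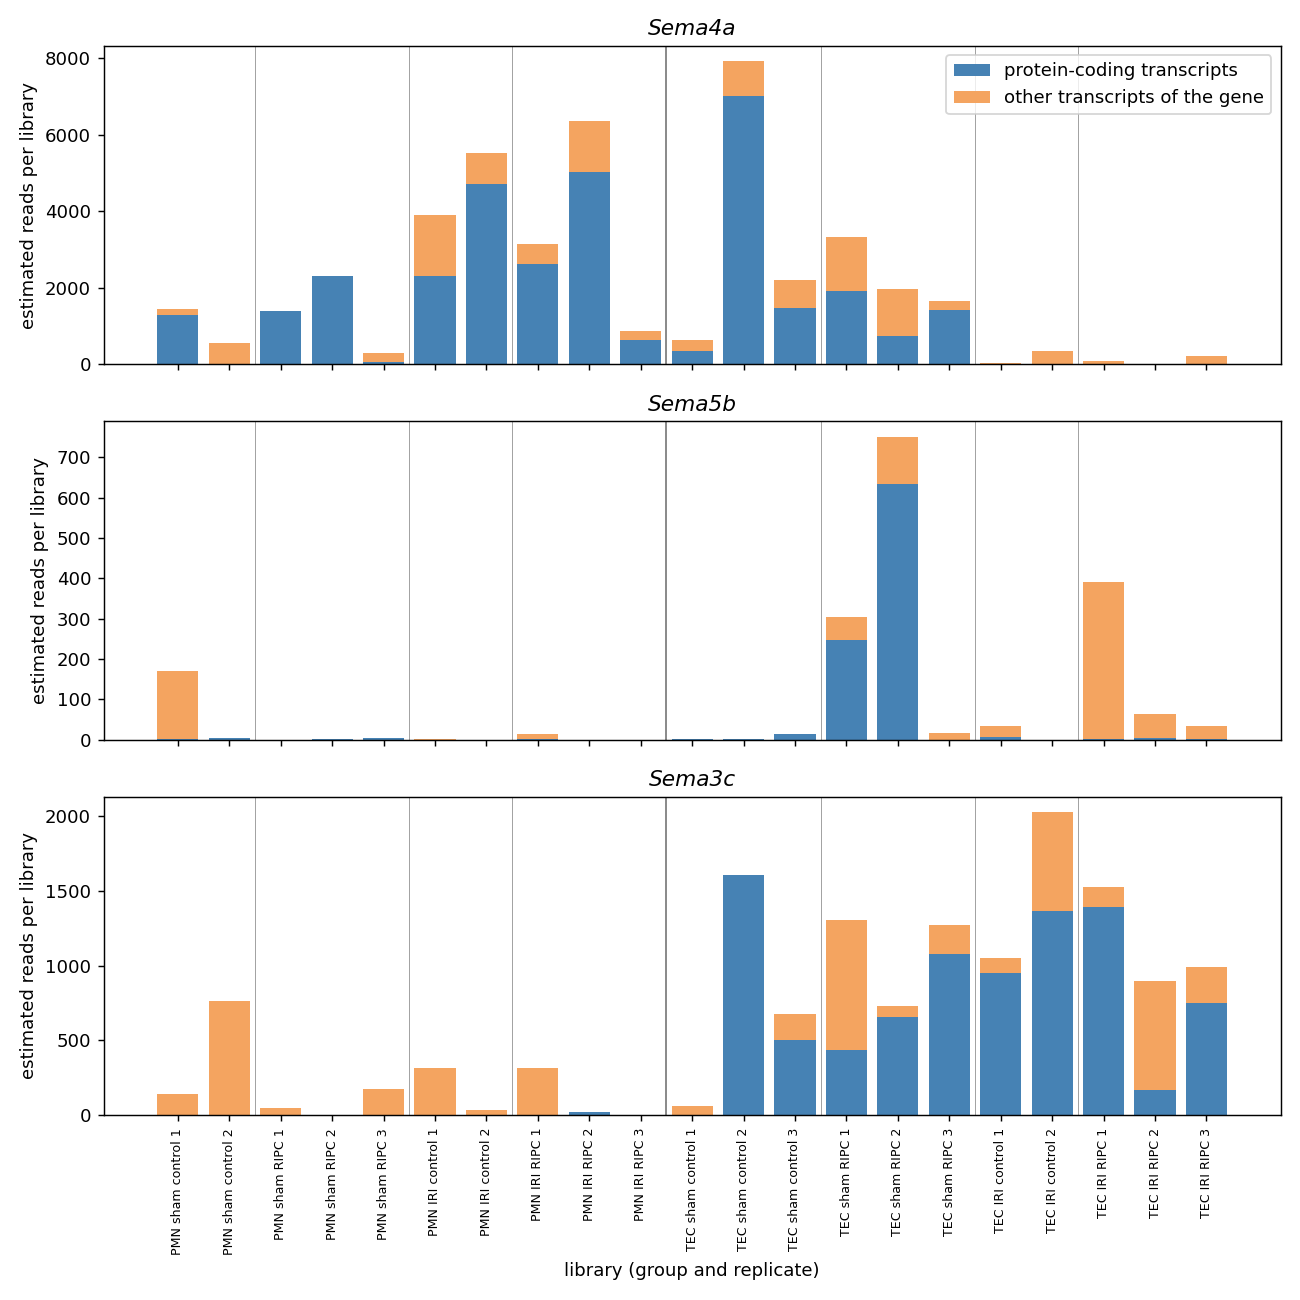
Estimated reads per library of Sema4a, Sema5b and Sema3c, stacked by protein-coding transcripts (blue) and other transcripts of the gene (orange), for the 21 libraries in group order. Sema4a has hardly any coding reads in the TEC libraries after IRI, Sema5b has them mainly in TEC sham RIPC libraries 1 and 2, and Sema3c has them in TECs and scarcely in PMNs.

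Sema5b had few reads outside a handful of libraries. In TECs after sham surgery it had 2, 1 and 14 reads with control, or 0.0827, 0.0249 and 0.526 CPM. With RIPC it had 305, 752 and 17 reads, or 11.6, 28.5 and 0.752 CPM. All 3 RIPC libraries lay above all 3 controls, the lowest by a small margin. Groups did not overlap in this comparison for 7.82% of all genes tested.

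After IRI, Sema5b had 35 and 0 reads in the TEC control libraries, or 1.40 and 0 CPM. With RIPC it had 392, 64 and 35 reads, or 15.1, 2.71 and 1.62 CPM. In CPM all lay above the controls, and groups did not overlap in this comparison for 16.9% of all genes tested. In reads the lowest RIPC library equalled the highest control, with 35 each. Sema5b also overlapped in coding reads, with 3, 5 and 2 in the RIPC libraries against 6 and 0. In PMNs it had 171 and 5 reads after sham surgery and control, 0, 1 and 4 after sham surgery and RIPC, 1 and 0 after IRI and control, and 14, 0 and 0 after IRI and RIPC. It was therefore detected in 4 of 10 PMN libraries and 8 of 11 TEC libraries, and most of its PMN reads came from 1 library.

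By mean TPM, Sema5b stood at place 10 of the 31 members in TECs and 26 in PMNs. Among the TEC groups it was 23 in sham control (0.0266 TPM), 7 in sham RIPC (2.83 TPM ± 2.80, SD, n = 3), 25 in IRI control (0.120 TPM) and 9 in IRI RIPC (1.43 TPM ± 1.73, SD, n = 3). Among the PMN groups it was 15 in sham control, 26 in sham RIPC, 21 in IRI control and 28 in IRI RIPC. The place in PMNs after IRI and control rests on 1 read.

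RIPC against control in TECs after sham surgery gave a log2 difference of 5.99 for Sema5b (SE 2.34), with an unadjusted edgeR p of 0.0223 and an adjusted p of 0.708 over 25917 genes. No gene at all passed the adjusted threshold in that comparison (0% of those tested). The Wald test of DESeq2 called Sema5b there, with a log2 difference of 6.01 and an adjusted p of 0.0194, and so did DESeq2 with apeglm, with a shrunken difference of 4.76 and an s value of 0.00246. Over all genes the Wald test called 1.64% and apeglm 0.239%.

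Markers of other cells moved between the same TEC libraries after sham surgery. The 7 endothelium markers summed to 21.8, 3.94 and 32.1 CPM in the control libraries and to 102, 52.0 and 88.4 CPM with RIPC. The 5 erythrocyte markers summed to 23.5, 735 and 72.8 CPM and to 13.6, 7.39 and 5.04 CPM, so neither list overlapped between the groups. Taken singly, 2 of 7 endothelium markers and 3 of 4 erythrocyte markers tested did not overlap, beside 7.82% of all genes. The sums of the other lists overlapped. Podocyte markers, for example, had 25.6, 0.174 and 20.1 CPM with control and 89.3, 19.0 and 145 CPM with RIPC. The 5 markers of tubular injury summed to 9562, 993 and 2016 CPM in the control libraries and to 2029, 2330 and 1392 CPM with RIPC, so these sums overlapped. Their log2 difference was below 0 for all 5, with 3 under an unadjusted edgeR p of 0.05 (4.53% of all genes) and 0 called. The part of these markers in the difference of Sema5b was not tested.

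After IRI the RIPC difference of Sema5b in TECs was 3.21 (SE 2.42, adjusted p = 0.810 by edgeR). The test of whether the RIPC effect differed between sham surgery and IRI gave -2.78 (SE 2.83, adjusted p = 1.00). In PMNs RIPC gave -5.37 (SE 3.15, adjusted p = 0.705) after sham surgery and 2.86 (SE 3.13, adjusted p = 1) after IRI, with an interaction of 8.23 (SE 4.64, adjusted p = 0.766).

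Across cell types the log2 difference of Sema5b, PMNs against TECs, was -3.25 (SE 1.34, adjusted p = 0.179 by edgeR). IRI against sham surgery gave 0.28 in TECs (SE 1.37, adjusted p = 1.00) and -2.97 in PMNs (SE 2.19, adjusted p = 0.593). The effect of IRI in TECs against that in PMNs was 3.30 (SE 2.44, adjusted p = 0.822). Coding transcripts held 248 of 305, 635 of 752 and 0 of 17 reads in the TEC sham RIPC libraries. In the sham control libraries they held 2 of 2, 1 of 1 and 14 of 14. In the TEC IRI RIPC libraries they held 3 of 392, 5 of 64 and 2 of 35, and in the IRI control libraries 6 of 35 and 0 of 0. The coding reads of Sema5b were thus concentrated in 2 of the 11 TEC libraries. In the PMN library with 171 reads, 1 was of a coding transcript.

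Plxna1 spread over a wide range within nearly every group. In TECs it had 2, 37 and 796 reads in sham control, or 0.0827, 0.922 and 29.9 CPM, and 42, 29 and 116 in sham RIPC, or 1.59, 1.10 and 5.13 CPM. After IRI it had 759 and 6 reads with control, or 30.3 and 0.275 CPM, and 448, 20 and 976 with RIPC, or 17.2, 0.846 and 45.1 CPM. In PMNs it had 2 and 68 reads in sham control, 1, 0 and 54 in sham RIPC, 0 and 650 in IRI control and 22, 0 and 215 in IRI RIPC. In each of the 8 groups the highest library had several times the reads of the lowest.

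On the TPM scale Plxna1 stood at place 11 of 31 in TECs and 23 in PMNs. Its places in the TEC groups were 9 in sham control (0.963 TPM), 16 in sham RIPC (0.651 TPM), 7 in IRI control (2.30 TPM) and 13 in IRI RIPC (0.958 TPM). In the PMN groups they were 23, 22, 18 and 20 in the same order. Nearly all its reads were of coding transcripts, 98.0% in PMNs and 95.8% in TECs, and 8.55% of its 31-base stretches were shared with the antisense gene Gm26811, whose reads cannot be told apart without strand.

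Neither edgeR's main test nor DESeq2's Wald test called Plxna1 in any comparison. PMNs against TECs gave a log2 difference of -1.76 (SE 1.37, adjusted p = 0.671 by edgeR), and IRI against sham surgery 1.75 in TECs (SE 1.38, adjusted p = 0.616) and 2.34 in PMNs (SE 2.43, adjusted p = 0.734). For RIPC the differences in TECs were -1.97 (SE 1.90) after sham surgery and 0.47 (SE 2.07) after IRI. In PMNs they were -0.87 (SE 3.21) and -2.01 (SE 3.23), and all 4 had an adjusted p of 1. The effect of IRI in TECs against that in PMNs was -0.56 (SE 2.63), and the interaction of RIPC and surgery was 2.44 (SE 2.84) in TECs and -1.14 (SE 4.64) in PMNs. Standard errors of this size leave room for differences in either direction.

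Between PMNs and TECs, Sema6b was the single member called of 29 tested, where 6.87% of all 31769 genes were called, 2.91% higher and 3.95% lower in PMNs. Sema6b, a membrane semaphorin that binds plexins of the A class, had 466 and 146 reads in PMN sham control, 0, 189 and 29 in sham RIPC, 2 and 69 in IRI control and 20, 91 and 265 in IRI RIPC. In TECs it had 0, 0 and 1 reads in sham control, 1, 0 and 0 in sham RIPC, 22 and 2 in IRI control and 0, 0 and 0 in IRI RIPC. The groups overlapped, since the TEC library with 22 reads (0.877 CPM) lay above several PMN libraries. These were sham RIPC library 1 (0 reads), IRI control library 1 (2 reads, 0.0854 CPM) and IRI RIPC library 1 (20 reads, 0.816 CPM). DESeq2's Wald test called 6 members, Sema3c, Sema4a, Sema5b, Sema6b, Sema6c and Nrp2, beside 16.9% of all genes. No member kept the cell types fully apart, against 1.1% of all genes tested.

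The mean level of Sema6b was 5.46 CPM ± 6.04 (SD, n = 10) in PMNs and 0.0949 CPM ± 0.261 (SD, n = 11) in TECs. The fitted log2 difference was 7.15 (SE 1.56, adjusted p = 0.00696 by edgeR's quasi-likelihood test). Because 1 TEC group was at 0 throughout, the size of this value depends on the small counts that the fit adds, and it is no bound. All its reads were of coding transcripts. Leaving out IRI control library 2 of the TECs, which had 2 reads, gave an adjusted p of 0.0643, and none of the 4 conditions alone gave a call, with differences of 9.56, 7.55, 1.51 and 10.00 in sham control, sham RIPC, IRI control and IRI RIPC.

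**Figure D4:**
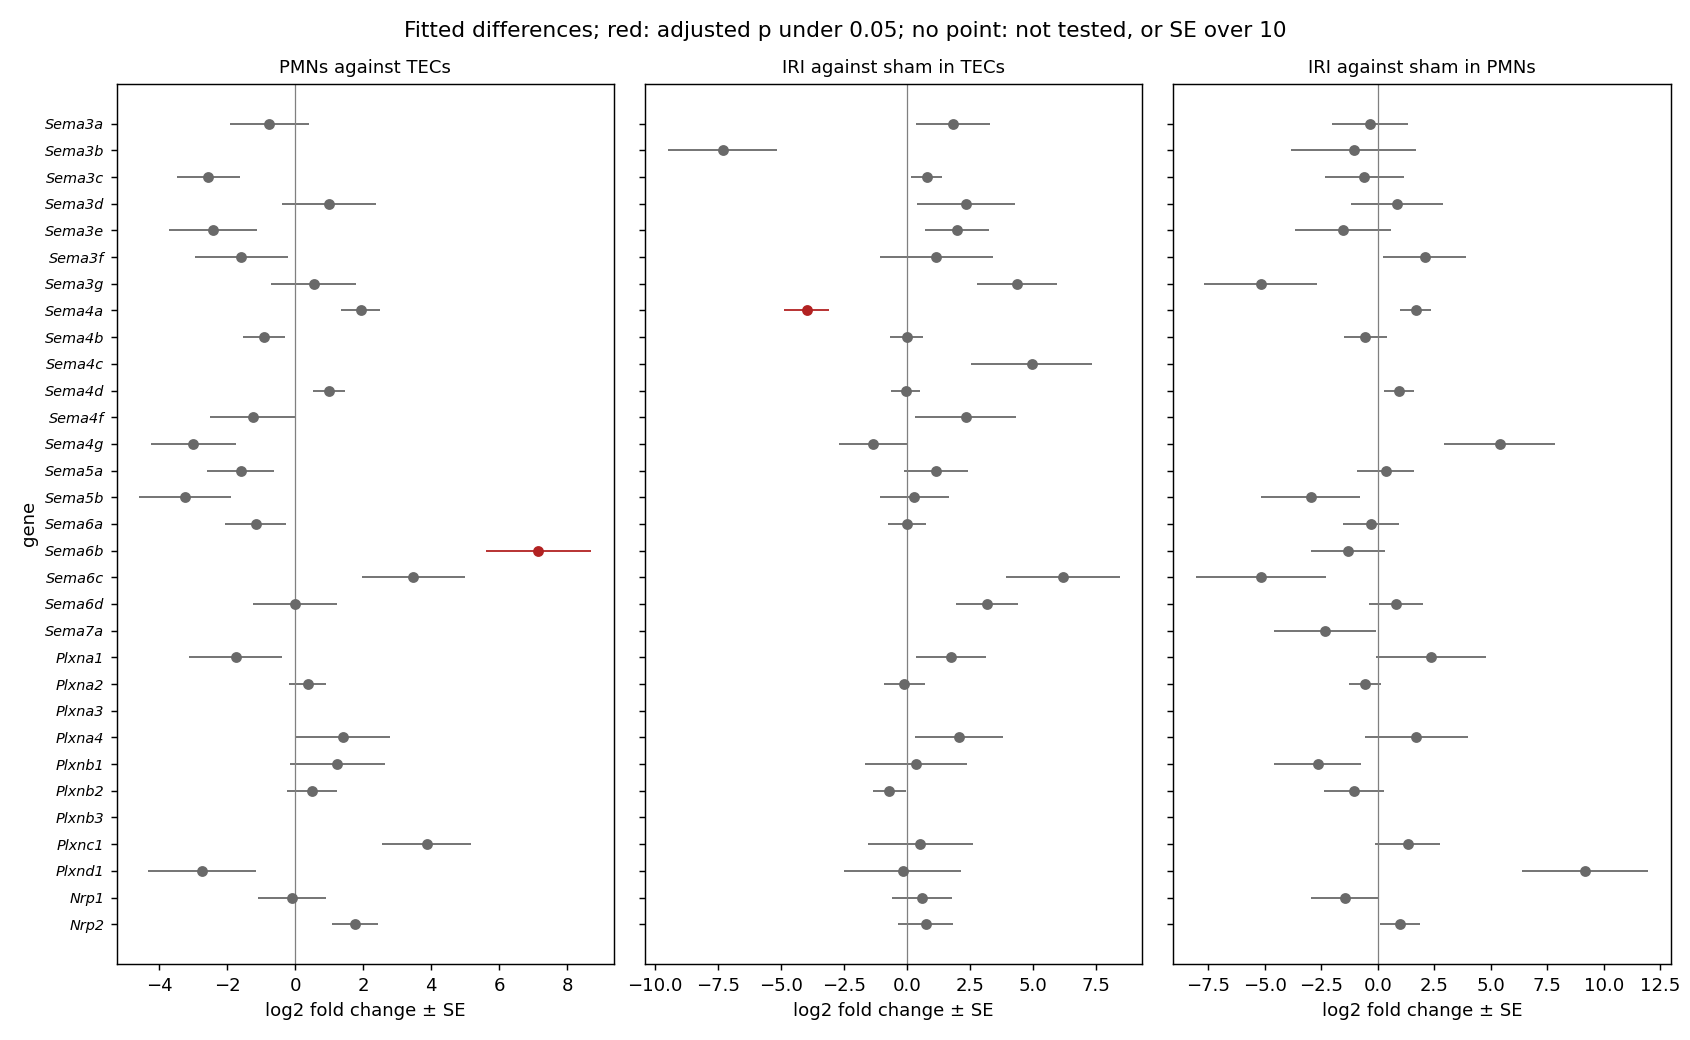
Fitted log2 fold changes with standard errors for the members tested, in PMNs against TECs (positive: higher in PMNs), IRI against sham surgery in TECs and IRI against sham surgery in PMNs. Sema6b in the first and Sema4a in the second are the red points with an adjusted p under 0.05, and no point is drawn where a gene was not tested or where its standard error was over 10 and too large to draw (Sema3b, Sema4c and Sema7a in the first).

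The secreted class 3 semaphorins were called in no comparison by edgeR's main test. DESeq2's Wald test called Sema3c between the cell types, Sema3b and Sema3g for IRI in TECs and for the difference of the IRI effects, and Sema3b for RIPC in TECs after IRI and for the interaction in TECs. Sema3c, which signals through neuropilins, had 64, 1609 and 675 reads in TEC sham control, 1305, 727 and 1275 in sham RIPC, 1053 and 2028 in IRI control and 1527, 898 and 993 in IRI RIPC. In PMNs it had 139 and 764, then 45, 0 and 173, then 316 and 33, then 313, 24 and 1 reads in the groups in the same order. TECs were higher in most libraries, and the groups overlapped.

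The log2 difference of Sema3c, PMNs against TECs, was -2.56 (SE 0.92, adjusted p = 0.113 by edgeR). The kind of transcript differed too. Of its 1808 PMN reads 25 were of coding transcripts (1.38%), and of its 12154 TEC reads 8911 were (73.3%). In coding transcripts alone it passed edgeR's test, an alternative chosen after the data had been seen, in which 11.5% of all genes were called.

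Sema3b, another secreted member, had 462, 72 and 881 reads in TEC sham control and 845, 236 and 299 in sham RIPC. After IRI it had 0 and 0 with control and 0, 0 and 177 with RIPC. Library 3 of the IRI RIPC group overlapped the sham libraries. The log2 difference was -7.31 (SE 2.17, adjusted p = 0.136 by edgeR). Sema3g, which signals through Nrp2, differed by 4.35 between IRI and sham surgery in TECs (adjusted p = 0.232).

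Sema3a, the ligand of Nrp1 best known for repelling axons, had a median of 4.81 CPM in TECs and of 1.12 CPM in PMNs (0.157 to 14.4). Sema3e, which binds Plxnd1 without a neuropilin, had a median of 10.9 CPM in TECs and 0.397 CPM in PMNs. Sema3d had a median of 1.13 CPM in PMNs and 0.752 CPM in TECs, and Sema3f had a median of 0 in both. None of these 4 passed edgeR's main test in any comparison.

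Sema4d, also called CD100, binds Plxnb1 and Plxnb2 and, on lymphocytes, Cd72. It had 7.96 and 97.5 CPM in PMN sham control, 29.8, 47.0 and 80.3 in sham RIPC, 63.0 and 90.8 in IRI control and 197, 108 and 104 in IRI RIPC. In TECs it ranged from 14.1 to 75.1 CPM with a median of 29.5. The log2 difference between the cell types was 0.98 (SE 0.47, adjusted p = 0.283 by edgeR). In PMNs after IRI all 3 RIPC libraries lay above both controls, in a comparison where groups did not overlap for 16.4% of all genes tested. The log2 difference was 0.79 (SE 0.94, adjusted p = 1 by edgeR).

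Sema4b was at 8.15 to 89.8 CPM in TECs (median 15.1) and 0.683 to 44.2 CPM in PMNs (median 8.83). It was detected in all 21 libraries and was called by edgeR in no comparison. Sema4g was at a median of 2.64 CPM in TECs and 0.0935 CPM in PMNs, with a log2 difference of -3.01 (adjusted p = 0.183). Sema4c and Sema4f had a median of 0 CPM in PMNs and 0 and 0.0442 CPM in TECs.

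Of the remaining membrane semaphorins, Sema5a, which also carries thrombospondin repeats, had a median of 7.22 CPM in TECs and 3.69 CPM in PMNs. Sema6a had a median of 6.34 CPM in TECs and 2.33 CPM in PMNs, and Sema6d of 3.19 and 2.38 CPM. After IRI, Sema6d differed by 3.17 in TECs on the log2 scale (SE 1.21, adjusted p = 0.252). Sema6c and Sema7a, the latter anchored by a lipid and known as a ligand of Plxnc1, had a median of 0 CPM in both cell types. Sema6c differed by 3.47 between PMNs and TECs (adjusted p = 0.227).

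Among the receptors, Plxnb2, a receptor of class 4 semaphorins found in many epithelia, had 28.4 and 184 CPM in PMN sham control, 47.8, 5.83 and 38.0 in sham RIPC, 27.4 and 46.6 in IRI control and 33.4, 0 and 28.4 in IRI RIPC. In TECs it had 61.7, 39.8 and 55.6 CPM in sham control, and 17.7 to 33.4 CPM (553, 880 and 401 reads) in sham RIPC. After IRI it had 26.8 and 36.8 CPM with control and 24.0, 1.31 and 22.5 with RIPC. In CPM every TEC library with RIPC lay below every control in both surgeries. Groups did not overlap in these comparisons for 7.82% of all genes tested after sham surgery and 16.9% after IRI. On the TPM scale the groups overlapped, with 16.2, 16.7 and 6.09 TPM with RIPC against 9.76, 13.7 and 16.2 TPM with control after sham surgery. After IRI the RIPC libraries had 4.66, 1.25 and 9.10 TPM, and the lower of the controls had 4.43 TPM.

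The differences of Plxnb2 under RIPC in TECs were -1.14 after sham surgery (SE 0.89, adjusted p = 0.904 by edgeR) and -1.01 after IRI (SE 0.97, adjusted p = 0.916). Between cell types it differed by 0.49 (SE 0.74, adjusted p = 1.00). Plxna2, a receptor of class 3 and class 6 semaphorins, varied least of the expressed members, at 6.14 to 22.2 CPM in PMNs and 5.62 to 21.1 CPM in TECs. Its reads were mostly of transcripts not annotated as protein-coding, with 3.81% on coding transcripts in PMNs and 33.5% in TECs.

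Plxnc1, a plexin of myeloid cells, had 11.1 and 2.92 CPM in PMN sham control, 4.46, 7.98 and 4.26 in sham RIPC, 17.1 and 9.60 in IRI control and 0.449, 55.3 and 0.205 in IRI RIPC. In TECs no library exceeded 1.62 CPM. Only libraries 1 and 3 of the PMN IRI RIPC group reached into the range of TECs. The log2 difference was 3.87 (SE 1.32) with an adjusted p of 0.0880 by edgeR.

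Plxna4 had a median of 1.84 CPM in PMNs and 0.677 CPM in TECs. Plxnb1, a receptor of Sema4d, had a median of 5.46 CPM in PMNs and 1.32 CPM in TECs. Plxnd1 was at a median of 0 in both. In PMNs it had no read in any of the 5 sham libraries and 13.7, 0, 0.530, 1.87 and 1.89 CPM after IRI, and it did not pass edgeR's test (adjusted p = 0.359).

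Plxna3 and Plxnb3 lie on the X chromosome, which was left out of the tests as in the study's methods. Plxnb3, known as a receptor of Sema5a, had 65.3, 40.3 and 0 CPM in PMN sham RIPC, 0.171 and 11.9 in IRI control, and at most 5.14 CPM in the other PMN groups. In TECs 9 of 11 libraries were below 1 CPM. None of its 2637 PMN reads was of a coding transcript. Neither gene was called in any comparison when the sex chromosomes were included.

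Both neuropilins were expressed in both cell types. Nrp1 had 40.6 and 7.85 CPM in PMN sham control, 69.4, 9.71 and 63.2 in sham RIPC, 3.24 and 12.2 in IRI control and 0.816, 0.0445 and 59.5 in IRI RIPC. In TECs it ranged from 0.0923 to 41.2 CPM with a median of 21.3. The cell types differed by -0.10 on the log2 scale (SE 0.99, adjusted p = 1.00 by edgeR).

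Nrp2, a co-receptor for Sema3f and for lymphatic growth factors, had a median of 15.1 CPM in PMNs (4.03 to 53.3) and 6.62 CPM in TECs (0.249 to 11.0). The log2 difference of 1.76 (SE 0.68) did not pass the test (adjusted p = 0.140). Of the neuropilin-binding growth factors and their receptors, 7 of 8 listed genes were tested between the cell types. Vegfb alone was called, lower in PMNs (log2 difference -4.64, SE 1.23, adjusted p = 0.0259). Its mean CPM was nearly equal, 4.86 in PMNs and 4.61 in TECs, since the test averages the groups on the log scale. Over all genes 3.95% were called lower.

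Of the co-receptors and other receptors of semaphorins, 3 of 11 tested of 12 listed were called between the cell types. Tyrobp and Cd72 were higher in PMNs and Timd2 was lower, beside 2.91% of all genes higher and 3.95% lower. Tyrobp, an adaptor of myeloid receptors that also couples to Plxna1, had a mean of 1148 CPM in PMNs and 1.88 CPM in TECs (log2 difference 11.22, SE 1.36, adjusted p = 3.15e-05). Cd72, a receptor of Sema4d, had 198 and 3.44 CPM (4.77, SE 1.18, adjusted p = 0.0152). Timd2, a receptor of Sema4a, had 9.21 and 81.9 CPM (-5.40, SE 1.01, adjusted p = 0.00171).

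Of the 28 effectors inside the cell, 4 were called higher in PMNs and 0 lower, beside the same shares of all genes. Fes, a tyrosine kinase that binds plexin A1, had a log2 difference of 7.21 (adjusted p = 0.000254). Mical1, which oxidises actin downstream of plexins, had 6.86 (adjusted p = 0.00346). Sh3bp1, a GTPase-activating protein for Rac, had 8.12 (adjusted p = 0.00730), and the GTPase Rap1b had 1.80 (adjusted p = 0.00399). In the other comparisons edgeR called 0 genes of these 3 lists. At an unadjusted edgeR p under 0.05 for IRI in TECs there were 3 of 7 growth factors or their receptors tested, 7 of 28 effectors and 3 of 11 co-receptors, beside 15% of all genes. For the difference of the IRI effects there were 1 of 7, 3 of 28 and 5 of 11 in the same order, beside 9.76% of all genes. For IRI in PMNs there were 0 of 7, 3 of 27 and 1 of 10, beside 11.8%. No list had more than 2 such genes in a RIPC comparison or more than 4 in an interaction.

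Over all members tested, the median log2 difference between PMNs and TECs was -0.10, beside -0.02 over all genes tested. By the unadjusted edgeR p, 8 of 29 members were under 0.05, beside 17.8% of all genes. For IRI in TECs the median was 0.74 beside 0.15, with 5 of 27 members under an unadjusted 0.05 beside 15% of all genes. For IRI in PMNs the median was -0.35 beside -0.01. There edgeR called 0 of 27 members beside 0.416% of all genes (0.364% higher and 0.052% lower), the groups did not overlap for 0 members beside 5.5% of all genes, and 2 members were under an unadjusted 0.05 beside 11.8%. DESeq2's Wald test called 1, Plxnd1, beside 7.82% of all genes. The effect of IRI in TECs against that in PMNs gave 0 members called beside 0% of all genes, and 6 of 29 under an unadjusted 0.05 beside 9.76%, while the Wald test called 4 (Sema3b, Sema3g, Sema4a and Sema6c) beside 7.54%.

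For RIPC, edgeR called 0 members in any of the 4 comparisons or the 2 interactions. The share of all genes called was 0% in TECs after sham surgery, 0.00386% in TECs after IRI, 0.004% in PMNs after sham surgery and 0% in PMNs after IRI, and 0% in both interactions. At an unadjusted p under 0.05 there were 2 members in TECs after sham surgery (4.53% of all genes), 2 in TECs after IRI (4.35%), and 0 in PMNs after sham surgery (4.6%) and after IRI (2.72%). The interactions had 1 such member in TECs (7.21%) and 0 in PMNs (5.74%). The Wald test of DESeq2 called 1 member in TECs after sham surgery (Sema5b, beside 1.64% of all genes), 1 in TECs after IRI (Sema3b, beside 2.7%) and 1 in the interaction in TECs (Sema3b, beside 2.3%). It called 0 members in PMNs after sham surgery (3.25% of all genes), in PMNs after IRI (1.72%) and in the interaction in PMNs (2.68%).

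Groups with and without RIPC did not overlap for 3 members in TECs after sham surgery, where this held for 7.82% of all genes tested. They were Sema5a and Sema5b, higher, and Plxnb2, lower. In TECs after IRI it held for 5 members, beside 16.9% of all genes: Sema4b, Sema5b and Sema6a, higher, and Sema3f and Plxnb2, lower. In CPM of all transcripts Sema5b and Plxnb2 were thus apart in the same direction after both surgeries. The share of all genes for which this held after both surgeries was not counted, so no conclusion is drawn from it. For Sema5b the lowest RIPC and the highest control library after IRI had 35 reads each, and its coding reads overlapped between the groups in both surgeries. Plxnb2 overlapped on the TPM scale. In PMNs it held after sham surgery for Sema4b and Sema5b, both lower (12.7% of all genes), and after IRI for Sema4d, higher, and Plxna2 and Plxna4, lower (16.4%). With 2 or 3 libraries a group, such a pattern is frequent among all genes, as these shares show.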

How the data were processed

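Full-length cDNA made from polyadenylated RNA was amplified and sequenced as single-end reads of 50 bases, without strand. The authors trimmed the reads (Trim Galore 0.6.4) and quantified transcripts with Salmon 1.0.0 against Gencode vM23 (mm10), and deposited estimated counts, TPM and transcript lengths for 2 files a library. The estimated counts are not normalized. Here they were added over a gene's transcripts (Gencode M21, GRCm38, 139864 of 140748 transcripts matched) and over both files, and rounded to whole numbers. The deposited TPM values were added over transcripts and averaged over the files. The files of a library agreed far more closely than independent reads would (median chi-square per gene 0.0119 to 0.0619, against 0.455), so each sum counts most reads about 2 times, and the limit of 3 reads for a count of 0 covers counting error only. The cause was not tested.

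CPM used TMM library sizes. The main test was edgeR 4.0.16 (R 4.3.3, limma 3.58.1), quasi-likelihood, one mean per group, filterByExpr, Benjamini-Hochberg over all genes tested, threshold 0.05, without the sex chromosomes and the mitochondrial genome. The 11 TEC, the 10 PMN or all 21 libraries were fitted. Within a cell type the comparisons share libraries. The study describes the libraries as biological replicates. The fit was tested on simulated counts with large changes put in for the IRI comparisons within a cell type only. That run does not cover the RIPC comparisons, the comparison of cell types or smaller changes. Alternatives were DESeq2 1.42.0 (Wald test, size factors, apeglm 1.24.0), filters, each file alone, a length offset, robust dispersions, the replicate number as a block, single conditions, each library left out and, chosen after seeing the data, coding transcripts alone. Named with full values are members called, Sema5b and Plxna1, and the 5 members of highest mean TPM per cell type. Others are named to account for all 31. The members and lists were chosen with earlier results of these data known.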

Additional observations from a re-analysis of the deposited data

How the results depend on the processing

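Between PMNs and TECs the 1 member called became 4 without a filter on low counts (Sema3c, Sema4a, Sema6b and Plxnc1), 4 with coding transcripts alone (Sema3c, Sema4a, Sema4g and Sema6b), 2 with either file alone or robust dispersions, 6 with DESeq2's Wald test (Sema3c, Sema4a, Sema5b, Sema6b, Sema6c and Nrp2), 0 in each single condition, and 1 to 2 with a library left out. For IRI in TECs it became 0 with DESeq2's size factors or in control or RIPC mice alone, 2 without a filter (Sema3b and Sema4a), 4 with the Wald test (Sema3b, Sema3g, Sema4a and Sema6d), and 0 to 2 with a library left out. The Wald test called 1 for IRI in PMNs, 4 for the difference of the IRI effects (2 for edgeR without a filter), and 1 each for RIPC in TECs after sham surgery (apeglm also 1), RIPC in TECs after IRI and the interaction in TECs. At 1 TPM, 8 members were expressed in PMNs and 8 in TECs. With a library left out, 14 to 18 and 19 to 21 were expressed at 1 CPM. Sema6b stayed higher in PMNs in every alternative, and over libraries left out its log2 difference was 6.11 to 7.69 and that of Sema4a in TECs -5.46 to -3.48. Where leaving out a library left a single one in a group, that one was taken to vary like the others.

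Sema5b changed direction in PMNs against TECs with the sham control groups alone (4.06), for IRI in TECs with the replicate block (-0.71), coding transcripts (-3.30) or RIPC mice alone (-1.11), for IRI in PMNs with a length offset (0.43) or RIPC mice alone (1.15), for the difference of the IRI effects with coding transcripts (-0.055), and for RIPC in PMNs after IRI with the offset (-3.39). Plxna1 did so with the offset for RIPC in TECs after IRI (-1.19), RIPC in PMNs after sham surgery (1.68) and the interaction in TECs (-0.61), and with the block for the difference of the IRI effects (0.24), RIPC in TECs after IRI (-0.54), and the interactions in TECs (-0.054) and PMNs (0.43). With a library left out, Sema5b ranged from -3.29 to 1.22 for IRI in TECs, -0.39 to 5.93 for the difference of the IRI effects and -4.66 to 4.35 for the interaction in TECs. Plxna1 ranged from -1.12 to 3.88 for IRI in TECs, -3.21 to 4.83 for IRI in PMNs, -3.52 to 5.00 for the difference of the IRI effects, -2.93 to 2.28 for RIPC in TECs after sham surgery, -0.75 to 6.21 for RIPC in TECs after IRI, -5.83 to 3.46 for RIPC in PMNs after sham surgery, -4.81 to 9.19 for RIPC in PMNs after IRI, -1.81 to 8.17 for the interaction in TECs and -5.44 to 10.02 for that in PMNs. Beyond these constructions the causes were not tested. Correlations of same-numbered libraries were -0.085 to 0.105 in TECs and -0.021 to 0.022 in PMNs. Over both cell types they were -0.074 to 0.094 (66 pairs). No pairing by replicate number was thus seen, but in libraries that vary this much such values cannot exclude one. The replicate block changed no count of members called (edgeR, Sema4a adjusted p = 0.0247, Sema6b 0.0158). Sema5b had 3 reads or fewer in 9 of the 21 libraries and Sema6b in 12.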
